A study of Homo sapiens with 6 samples.

Results

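Complex I, NADH:ubiquinone oxidoreductase, is the entry point of electrons into the mitochondrial respiratory chain. Its matrix arm takes electrons from NADH and passes them along iron-sulfur clusters to ubiquinone, and its membrane arm pumps protons. The core of the membrane arm is encoded by mitochondrial DNA, whereas the other subunits are encoded in the nucleus, translated in the cytosol and imported. The nuclear genes are named NDUFA, NDUFB, NDUFC, NDUFS and NDUFV followed by a number, and the remaining one, NDUFAB1, encodes a mitochondrial acyl carrier protein. All genes with such a symbol were taken, which gave 38 of the 63190 gene identifiers in the table and 315 of its 207167 transcripts. Assembly factors, named NDUFAF, were not among the members, and neither were the 63 other loci whose symbols begin in the same way, of which 57 were pseudogenes.

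The RNA-seq compared 3 libraries of cells that overexpress the D391N mutant of DIS3L2 with 3 libraries of control cells. DIS3L2 is an exoribonuclease that degrades RNAs with untemplated 3′ uridine tails, and D391N is a substitution in its catalytic site. The question of the experiment was whether RNA levels change when the inactive enzyme is present. The labels give the line as HEK293, a human embryonic kidney line, and describe the controls as empty cells. In the study's methods both are HEK293T-Rex, and the mutant was integrated stably and induced with doxycycline. Whether the control cells were given doxycycline is not stated. Each condition came from a single line, so effects of the construct, of doxycycline and of the line cannot be told apart. The study's methods describe a lane shared by 3 libraries and do not say which, so lane and condition cannot be told apart either. The replicates measure the spread between libraries, which may be technical.

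RNA was depleted of rRNA, and the authors assigned the reads to annotated transcripts with BitSeq, which shares ambiguous reads among transcripts. Levels are in RPKM, reads per kilobase of transcript scaled to library size, and a gene sum is the total over the transcripts of a gene. Fold changes are on the scale of log2(RPKM + 0.1), D391N minus control, and were tested by limma with Benjamini-Hochberg adjustment over all features whose mean was 1 RPKM or more. All 38 genes and 169 of the 315 transcripts passed this filter. DIS3L2, which includes reads from the construct, was at 369, 467 and 512 RPKM in the D391N libraries and at 11.8, 12.9 and 14.6 RPKM in the controls (exact two-sided permutation p = 0.1, the smallest that 3 against 3 libraries can give). The HEK293 markers VIM, KRT8, KRT18 and NEFL were between 26.5 and 180 RPKM, while NEFM was below 1 RPKM and PAX2 below 2 RPKM in every library. All 5 HEK293 markers tested had fold changes below 0, with a median of -0.43 (-0.37 without D391N replicate 2). For 3 of them every D391N library was below every control, as for 20.7% of all tested genes. None passed the threshold (lowest adjusted p = 0.0907). Their part in the values of the members was not tested. The markers of other cell types, PTPRC, COL1A1, ALB and HBB, were between 0.596 and 7.12 RPKM, and none of the 3 tested passed the test (adjusted p of at least 0.594).

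D391N replicates 1 and 2 stood apart in different ways. Replicate 2 was the shallowest library, at 0.607 times the depth of the deepest, and it was the lowest of the 6 libraries for 24 of the 38 genes, against 3 and 7 genes for D391N replicates 1 and 3. Over all tested genes it was not low. By the median deviation from the mean of each gene, D391N replicate 3 was the lowest library there. Pearson's r between gene sums of D391N replicates was 0.885 to 0.935, and between controls 0.959 to 0.977. D391N replicate 1 correlated with the controls at 0.956, 0.951 and 0.938, above its values with D391N replicates 2 and 3 (0.885 and 0.935), and D391N replicate 2 with them at 0.824 to 0.865. Without D391N replicate 2, the fold changes of 22 of the 38 members moved by over 1.5 times or changed sign, and the values without it are given below for these genes. The part of depth in this was not tested. The shares of all genes that these counts, 24 and 22 members, should be set against were not taken.

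The genes spanned a wide range of levels per length, from 7.06 to 369 RPKM as the mean over 6 libraries, with a median of 37.6 RPKM. NDUFS5, a small protein on the intermembrane side of the membrane arm, was by far the highest with 387, 253 and 335 RPKM in the D391N libraries, in the order of their replicate numbers as in all lists that follow, and 448, 443 and 350 RPKM in the controls. It was followed by NDUFB1, NDUFB10, NDUFAB1 and NDUFS4, whose means were 144, 140, 108 and 103 RPKM. These levels lie close together, since the range of NDUFB1 over the libraries was 91.5 to 176 RPKM and that of NDUFB10 was 64.1 to 170 RPKM. The lowest genes were NDUFA11, NDUFA3, NDUFB6, NDUFB4 and NDUFC1, with means of 7.06, 7.31, 7.92, 12.8 and 16.7 RPKM. The subunits of complex I are assembled in equal numbers apart from the acyl carrier protein. The gene sums, which count coding and non-coding forms alike, were not at equal levels.

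**Figure D1:**
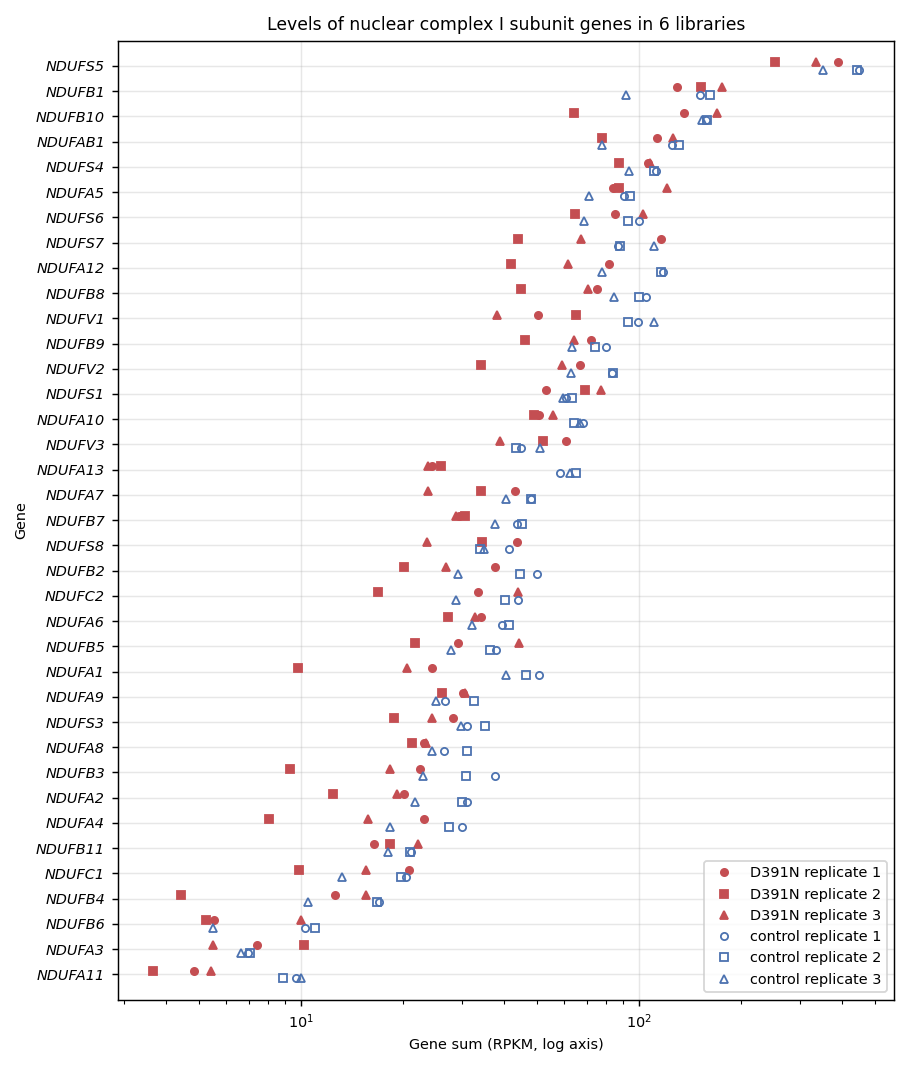
Gene sums in RPKM on a log axis for 37 of the 38 genes, ordered by their mean, with 1 point for each library (filled for D391N, open for control). NDUFS5 stands at the top, and D391N replicate 2, the filled square, is the lowest point for 24 genes.

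Most member genes had lower values in the D391N libraries. The log2 fold change was below 0 for 32 of 38 genes (84.2%), against 57.3% of the 20714 genes tested, and its median was -0.36, against -0.09 over all genes. Every D391N library was below every control for 12 members (31.6%), against 20.7% of all genes, and for no member was every D391N library above every control, against 10.5% of all genes. At an unadjusted p under 0.05, 10 members (26.3%) were lower, against 16.0% of all genes. Only NDUFA13 passed the adjusted threshold, with 0.135% of all genes called lower, and no member was called higher, with 0.00483% of all genes called higher. Without D391N replicate 2, the fold change was below 0 for 27 of the 38 members (71.1%), against 62.2% of all genes. The median was then -0.19 for the members and -0.14 for all genes, so that most of the distance between them was lost with 1 library. With each library centred on its median, the median was -0.14 for the members and 0.13 for all genes, a shift of both. These are bulk libraries scaled to their totals, so a lower level per cell and fewer expressing cells cannot be told apart.

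**Figure D2:**
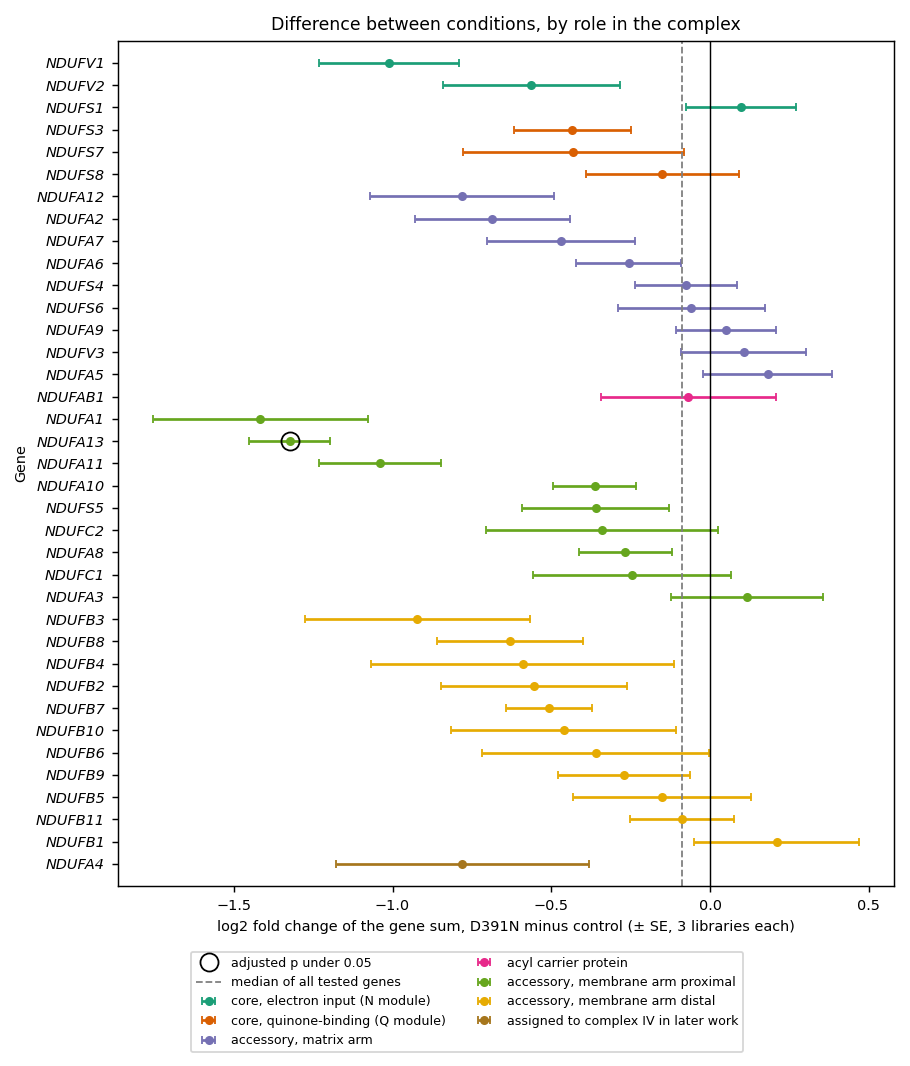
Log2 fold change of the gene sum with its standard error (3 libraries in each condition), grouped by place in the complex, with the dashed line at the median of all tested genes, -0.09. NDUFA13, circled, is the member past the adjusted threshold, and 31 of the 37 points shown lie below 0.

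The 9 accessory genes of the proximal membrane arm, the part next to the junction of the arms, had a median of -0.36 (-0.22 without D391N replicate 2), the same as that of all members. NDUFA13, also known as GRIM-19 and studied in cell death, spans the membrane and reaches into the matrix arm (ENSG00000186010; chromosome 19, 19626545 to 19639863 on the + strand of GRCh37). It was at 24.5, 25.9 and 23.8 RPKM in the D391N libraries and at 58.3, 65.1 and 62.7 RPKM in the controls. The replicates lay close together and the conditions were far apart. NDUFA13 fell 2.50-fold (log2 fold change -1.32 ± 0.13 SE, limma adjusted p = 0.0312). Its fold change was -1.36 without D391N replicate 2 with an adjusted p of 0.0674, and the call was also lost without D391N replicate 3 (0.0997) and without control replicate 1, 2 or 3 (0.189, 0.216 and 0.195). With a minimum mean of 0.1 RPKM, no filter, median centring or no trend, the adjusted p was between 0.0528 and 0.0754. In RPM, reads scaled to library size but not divided by length, which do not weight short transcripts up, the fold change was -1.15 ± 0.14 (adjusted p = 0.0181). This alternative was chosen after seeing the data, and 537 of 18741 genes were called in it, against 29 of 20714 in the main fit.

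NDUFA1, a small membrane protein of the same region that is required for assembly (ENSG00000125356; chromosome X, 119005795 to 119010625, + strand), has a single listed transcript. It was at 24.4, 9.81 and 20.6 RPKM in the D391N libraries and at 50.5, 46.4 and 40.5 RPKM in the controls. The conditions did not overlap, at a distance of 2.67-fold, but the D391N libraries were spread more widely than for NDUFA13 (log2 fold change -1.42 ± 0.34 SE, adjusted p = 0.106). The distance was 2.03-fold (-1.02) without D391N replicate 2, below the 2.56-fold of NDUFA13.

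NDUFA11, an accessory membrane protein of the same arm, was at 4.82, 3.65 and 5.41 RPKM against 9.67, 8.86 and 9.97 RPKM (ENSG00000174886; chromosome 19, 5891287 to 5904017, - strand). The ranges were again separate, at -1.04 ± 0.19 with an adjusted p of 0.0813 (-0.88 without D391N replicate 2). Leaving out D391N replicate 1 brought NDUFA1 and NDUFA11 past the threshold beside NDUFA13 (adjusted p of 0.0334 and 0.0382). In that setting, however, 2261 genes were called in all. Counting protein-coding transcripts alone, 593 of 11351 genes were called, and with them NDUFA1, NDUFA11, NDUFA13 and NDUFV1.

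The other 6 genes of the proximal membrane arm lay closer to the controls. NDUFA10, a peripheral subunit on the matrix face, was at 50.5, 48.8 and 55.8 RPKM against 68.4, 64.2 and 66.8 RPKM, with no overlap (-0.36 ± 0.13, adjusted p = 0.178). NDUFA8 was also separate, at -0.27. For NDUFS5, NDUFC2, NDUFC1 and NDUFA3 the libraries overlapped, and their fold changes were -0.36, -0.34, -0.25 and 0.12. These were -0.19, 0.05, 0.04 and -0.11 without D391N replicate 2, so that 3 of them changed sign. NDUFC1, the lowest of them but NDUFA3, was at 20.9, 9.86 and 15.6 RPKM against 20.5, 19.8 and 13.2 RPKM.

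The 11 genes of the distal membrane arm, all NDUFB, had a median of -0.46, which became -0.08 without D391N replicate 2. NDUFB3, a small membrane subunit, was at 22.5, 9.30 and 18.3 RPKM in the D391N libraries and 37.4, 30.7 and 22.9 RPKM in the controls (-0.92 ± 0.35, adjusted p = 0.194, and -0.55 without D391N replicate 2). The highest D391N value lay just below the lowest control. NDUFB7, a subunit on the intermembrane side, was at 29.4, 30.5 and 28.7 RPKM against 43.7, 45 and 37.6 RPKM (-0.51 ± 0.14, adjusted p = 0.12). NDUFB8 was the third of the arm without overlap, at -0.63 (-0.40 without D391N replicate 2). NDUFB1 was the highest of all members in fold change, at 0.21 ± 0.26, with 130, 153 and 176 RPKM against 152, 162 and 91.5 RPKM. Its conditions overlapped, and the sign rested on control replicate 3, without which it was -0.05. NDUFB10, with a twin-cysteine fold on the intermembrane side, was at 136, 64.1 and 170 RPKM against 158, 159 and 154 RPKM (-0.46 ± 0.35), where D391N replicate 2 alone was far below. Without it the value was -0.05. The low genes NDUFB4 and NDUFB6 were at 12.6, 4.43 and 15.6 RPKM against 17, 16.8 and 10.5 RPKM and at 5.54, 5.22 and 10 RPKM against 10.3, 11 and 5.5 RPKM, and control replicate 3 lay among or below the D391N libraries. NDUFB4, NDUFB2, NDUFB6, NDUFB9, NDUFB5 and NDUFB11 all overlapped, with fold changes of -0.59, -0.56, -0.36, -0.27, -0.15 and -0.09. They were -0.04, -0.34, -0.19, -0.08, 0.09 and -0.07 without D391N replicate 2.

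Of the core of electron input, NDUFV1, which binds NADH and the flavin cofactor, was at 50.4, 65.2 and 37.9 RPKM in the D391N libraries and 99.4, 92.6 and 111 RPKM in the controls (ENSG00000167792; chromosome 11, 67373124 to 67380025, + strand). The ranges were separate, at -1.01 ± 0.22 with an adjusted p of 0.0963 (-1.20 without D391N replicate 2). NDUFV2 carries an iron-sulfur cluster beside it and was at 66.9, 34.2 and 59.4 RPKM against 83.1, 83.8 and 63.1 RPKM (-0.56 ± 0.28, adjusted p = 0.275, and -0.27 without D391N replicate 2). NDUFS1, which holds further clusters, was at 53.1, 69.1 and 77.0 RPKM against 60.9, 63.5 and 59.5 RPKM (0.10 ± 0.17, adjusted p = 0.774, and 0.06 without D391N replicate 2). The differences between these genes were not tested.

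Of the quinone-binding core, NDUFS3 was at 28.2, 18.8 and 24.5 RPKM against 31.0, 35.0 and 29.7 RPKM, and the D391N libraries were all below the controls (-0.43 ± 0.19, adjusted p = 0.225, and -0.27 without D391N replicate 2). NDUFS7, which holds the last cluster of the chain, was at 116, 44 and 67.6 RPKM against 86.5, 87.6 and 111 RPKM, and NDUFS8 at 43.7, 34.3 and 23.6 RPKM against 41.4, 33.8 and 34.7 RPKM. For NDUFS7 and NDUFS8 D391N replicate 1 was the highest library of all, and their fold changes were -0.43 and -0.15 (adjusted p of 0.492 and 0.744). NDUFS7 was at -0.09 without D391N replicate 2 and at -0.79 without D391N replicate 1, and NDUFS8 at -0.18 and -0.36.

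The 9 accessory genes of the matrix arm had a median of -0.08, close to that of all genes, and of 0.02 without D391N replicate 2. NDUFA12 was at 81.3, 41.9 and 61.8 RPKM against 118, 116 and 77.9 RPKM (-0.78, adjusted p = 0.184), and NDUFA2 was at -0.69 with an adjusted p of 0.174. NDUFA7 and NDUFA6 were at -0.47 and -0.26, and NDUFS4 and NDUFS6, both needed to complete the arm, at -0.08 and -0.06. NDUFS4 was at 106, 87.2 and 108 RPKM against 112, 111 and 93.7 RPKM. NDUFA9, NDUFV3 and NDUFA5 were at 0.05, 0.11 and 0.18. When D391N replicate 2 was left out, NDUFA6, NDUFS4, NDUFS6 and NDUFA9 were at -0.16, 0.02, 0.12 and 0.12. NDUFA5 was at 83.6, 87.5 and 121 RPKM against 90.4, 94.1 and 71.2 RPKM, and NDUFV3 at 60.9, 52.1 and 38.9 RPKM against 44.7, 43.4 and 51.1 RPKM, with overlap in both. NDUFA3, of the membrane arm, rested on the information of 3.06 to 12.7 reads a library and was at 7.43, 10.2 and 5.51 RPKM against 6.97, 7.07 and 6.65 RPKM.

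NDUFAB1, the acyl carrier protein, was at 113, 77.8 and 126 RPKM against 125, 131 and 77.7 RPKM, with overlap of the conditions (-0.07 ± 0.28, and 0.14 without D391N replicate 2). NDUFA4, which later work assigned to complex IV, was at 23.2, 8.03 and 15.8 RPKM against 30.0, 27.4 and 18.3 RPKM (-0.78 ± 0.40, adjusted p = 0.288, and -0.37 without D391N replicate 2).

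At the level of single transcripts, 1 of the 169 tested passed the threshold and was lower, with 0.0402% of all 54671 tested transcripts called lower, and none was called higher, with 0.0201% of all. The D391N libraries were all below the controls for 42 transcripts (24.9%), against 15.6% of all, and all above them for 9 (5.33%), against 10.1%. The median over the members was -0.29, against -0.07 for all transcripts, and both were -0.09 without D391N replicate 2. Without D391N replicate 1, 23 member transcripts passed the threshold, among 4961 in all.

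The transcript called lower belonged to NDUFV1. ENST00000529867, a protein-coding form, was at 0.739, 0.603 and 0.593 RPKM in the D391N libraries and at 9.00, 18.4 and 16.1 RPKM in the controls (-4.23 ± 0.34, limma adjusted p = 0.0286). By the posterior variance its values in the D391N libraries carried the information of at most 0.0843 reads, and those in the controls of 3.11 to 23.4 reads, so the assignment of reads to this form was weakly determined and the size of the difference was not determined. It was -3.18 with a pseudocount of 1 RPKM. The call was lost without any 1 of D391N replicates 2 and 3 and the controls (adjusted p of 0.0794 to 0.231). This form was below 1 RPKM in every D391N library, so it passed the filter only through the controls. Its D391N values lay close together near the floor (SD 0.0813 RPKM), so the call cannot be taken as support for a difference. A second form, ENST00000533919, annotated as a target of nonsense-mediated decay (NMD), was at 7.41, 0.13 and 0.162 RPKM against 29.8, 21.2 and 33.7 RPKM (-5.18 ± 1.29, adjusted p = 0.155). Its values carried the information of 9.37, 0 and 0 reads in the D391N libraries and of 53.6 to 146 reads in the controls. It had the lowest fold change of the tested member transcripts, which was -6.82 to -4.31 with 1 library left out and -3.69 with a pseudocount of 1 RPKM, so that its size was not determined either. D391N replicate 1 was far above the other mutant libraries, and without it the adjusted p was 0.00182. That value rests on D391N replicates 2 and 3, which carried the information of 0 reads each. In that setting 4961 transcripts were called in all.

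Both forms differ from ENST00000322776, the form with the highest mean in the D391N libraries, by a later start of an exon, and they are also shorter at their ends (582 and 774 nt against 1560 nt). The windows below are from the GENCODE annotation of GRCh37, matched by transcript identifier, and are shown because the junctions of ENST00000529867 and ENST00000533919 occur in no other annotated NDUFV1 transcript of the table. Capitals mark bases that are present in one form and absent from the other. ENST00000529867 lacks 36 coding bases (chr11:67375867-67375902, + strand), a multiple of 3.

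ENST00000322776: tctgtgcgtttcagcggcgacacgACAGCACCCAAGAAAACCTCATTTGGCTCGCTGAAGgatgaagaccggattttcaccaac
ENST00000529867: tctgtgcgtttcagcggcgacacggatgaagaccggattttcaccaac

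ENST00000533919 lacks 74 coding bases (chr11:67378874-67378947), which is not a multiple of 3. ENST00000527923, annotated as a retained intron, keeps the 195 bases of the intron just before that exon (chr11:67378679-67378873), of which the first 24 are shown.

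ENST00000322776: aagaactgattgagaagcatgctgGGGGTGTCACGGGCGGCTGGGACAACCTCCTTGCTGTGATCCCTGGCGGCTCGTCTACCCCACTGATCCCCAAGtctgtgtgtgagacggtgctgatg
ENST00000533919: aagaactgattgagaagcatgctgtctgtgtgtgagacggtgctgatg
ENST00000527923: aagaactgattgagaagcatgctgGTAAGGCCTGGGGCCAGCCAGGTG

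ENST00000527923 was higher, at 3.51, 12.7 and 8.22 RPKM in the D391N libraries and 0.779, 1.66 and 1.74 RPKM in the controls. All D391N libraries were above all controls (2.36 ± 0.54, adjusted p = 0.14), and it had the highest fold change of the tested member transcripts in this fit. ENST00000322776 itself was at 11.8, 15.7 and 7.53 RPKM against 12.6, 20.0 and 16.3 RPKM, with overlap. Summed, ENST00000533919 and ENST00000529867, the pair of forms with the lowest fold changes, were at 8.15, 0.733 and 0.755 RPKM against 38.8, 39.7 and 49.8 RPKM. The other 26 NDUFV1 transcripts were at 42.3, 64.5 and 37.2 RPKM against 60.5, 53.0 and 61.6 RPKM, and there the conditions overlapped. The pair was chosen here for its fold changes, so the split cannot show where the lower gene sum of NDUFV1 lay. The other 26 transcripts include ENST00000527923, the form with the highest fold change.

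NDUFA13 had 6 tested transcripts. ENST00000606722, annotated as NMD, was at 9.83, 7.35 and 5.92 RPKM against 26.9, 36.0 and 27.3 RPKM (-1.97 ± 0.28, adjusted p = 0.0784), and the protein-coding ENST00000507754 was at 2.77, 1.5 and 2.02 RPKM against 8.77, 5.67 and 8.09 RPKM (-1.81, adjusted p = 0.103). Apart from their ends, they differ by 20 bases at the end of an exon (chr19:19638162-19638181, + strand), which ENST00000606722 holds and which are printed in capitals. With the ends, ENST00000606722 has 502 nt and ENST00000507754 has 521 nt. The junction without these bases also occurs in ENST00000428459, ENST00000502506 and ENST00000503283, so the window does not set the lower forms apart.

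ENST00000606722: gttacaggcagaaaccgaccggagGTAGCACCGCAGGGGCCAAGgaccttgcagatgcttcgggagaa
ENST00000507754: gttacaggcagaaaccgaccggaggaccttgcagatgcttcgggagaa

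Both forms had separate ranges. A further protein-coding form, ENST00000428459, was at 1.35, 0.963 and 3.74 RPKM against 10.6, 5.90 and 15.7 RPKM (-2.47, adjusted p = 0.14). Its values carried the information of 0.205 to 3.79 reads in the D391N libraries and of 6.43 to 29.5 reads in the controls. In contrast, ENST00000503283 was at 6.58, 11.8 and 9.99 RPKM against 8.34, 12.1 and 8.98 RPKM (-0.08 ± 0.31). Within the gene its share was 38.2% ± 9.96 (SD, n = 3) in the D391N libraries and 15.8% ± 2.50 in the controls, and that of ENST00000606722 was 31.1% ± 7.98 and 48.3% ± 6.25. Neither share passed the adjusted threshold (adjusted p of 0.181 and 0.299).

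**Figure D3:**
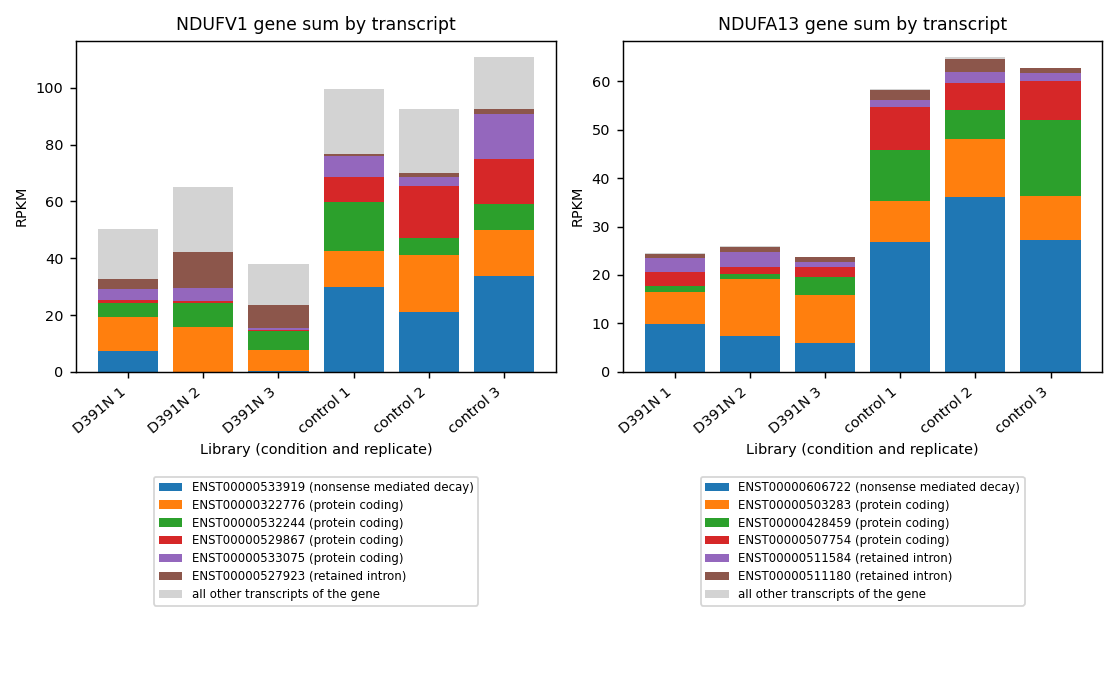
RPKM of the 6 transcripts with the highest means (colours) and of the others (grey), stacked to the gene sum, in each library for NDUFV1 and NDUFA13. For NDUFV1 the red ENST00000529867 is nearly absent in every D391N library, and the blue ENST00000533919 in D391N replicates 2 and 3. For NDUFA13 the orange ENST00000503283 is of similar height in all libraries while the rest is smaller in D391N.

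Other large differences between transcripts were found in genes whose sums differed less. ENST00000465096 of NDUFV2 has no defined coding sequence and was at 7.95, 0.568 and 2.18 RPKM against 20.4, 32.8 and 22.8 RPKM (-3.43, adjusted p = 0.152), while ENST00000483511 of the same gene was at 0.944, 11.5 and 7.70 RPKM against 0.641, 1.13 and 1.85 RPKM (1.91, adjusted p = 0.326). ENST00000547157 of NDUFA12 was at 5.01, 1.29 and 0.783 RPKM against 11.1, 19.1 and 10.5 RPKM (-2.84, adjusted p = 0.14). ENST00000525212 of NDUFS3 was low throughout, at 0.334, 0.154 and 0.203 RPKM against 0.732, 1.74 and 4.31 RPKM. None of these passed the adjusted test. ENST00000465096 carried the information of 1.01 to 1.64 reads in the D391N libraries, and ENST00000483511 that of 0.469 to 2.43 reads in the controls. For ENST00000547157 it was 1.26 and 0.178 reads in D391N replicates 2 and 3, and for ENST00000525212 at most 2.72 reads in any library. The sizes of these differences were thus weakly determined.

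The remaining transcripts with large positive values were ENST00000496904 of NDUFB5, ENST00000506765 of NDUFS4 and ENST00000470123 of NDUFA5. The first was at 1.23, 1.45 and 8.53 RPKM against 0.303, 0.688 and 0.43 RPKM. It carried the information of 10.2 reads in D391N replicate 3 and of at most 0.427 reads in any other library. ENST00000506765 was at 11.6, 26.8 and 17.0 RPKM against 3.63, 11.9 and 2.87 RPKM, and ENST00000470123 was at 2.43, 11.3 and 2.24 RPKM against 1.27, 2.01 and 0.707 RPKM. Their fold changes were 2.24, 1.78 and 1.62, with adjusted p of 0.227, 0.214 and 0.291. ENST00000496904 was at 1.38 without D391N replicate 3, and ENST00000470123 at 0.87 without D391N replicate 2.

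Isoform usage, the ratio of a transcript to the rest of its gene, was tested for 167 member transcripts. None passed the adjusted threshold by limma, with 0.0395% of all 48131 called, and 37 (22.2%) had an unadjusted p under 0.05, against 15.4% of all. The lowest adjusted p were those of ENST00000529867 (0.076) and ENST00000527923 (0.0911), both of NDUFV1. Without D391N replicate 1, 22 member transcripts passed, among 3338 in all. The share of ENST00000529867 in the gene was 1.32% ± 0.34 in the D391N libraries and 14.5% ± 5.43 in the controls, and that of ENST00000527923 was 16.0% ± 7.91 and 1.38% ± 0.53 (SD, n = 3).

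Of the 36 members with more than 1 listed transcript, 28 had the same top transcript in both conditions by the mean level. The other 8 were NDUFA4, NDUFA10, NDUFA12, NDUFA13, NDUFB5, NDUFB8, NDUFC1 and NDUFV1. The share of all genes whose top transcript differed was not counted, so these 8 cannot be read as particular to the members. In NDUFA12 the coding form ENST00000327772 made up 53.6%, 41.8% and 30.7% of the gene in the controls and 24.6%, 23.9% and 37.8% in the D391N libraries. The NMD form ENST00000546788 made up 4.34%, 9.44% and 21.1% in the controls and 29.8%, 55.5% and 43.8% in the D391N libraries. It was at 24.2, 23.2 and 27.0 RPKM against 5.14, 11.0 and 16.4 RPKM, with no overlap, but its usage did not pass the threshold (adjusted p = 0.186).

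In NDUFB8 the coding form ENST00000299166 made up 57.6%, 63.5% and 67.4% in the controls and 56.8%, 8.59% and 29.5% in the D391N libraries, where the retained intron form ENST00000529437 made up 26.1%, 54.3% and 36.3%. D391N replicate 1 thus lay near the controls. In NDUFB5 the retained intron form ENST00000476587 made up 52.6%, 40.2% and 42.0% in the controls and 42.4%, 8.77% and 18.8% in the D391N libraries. In NDUFA4 the retained intron form ENST00000486007 went from 45.6%, 47.1% and 55.9% in the controls to 30.7%, 8.82% and 12.7% in the D391N libraries.

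In NDUFA10 the coding form ENST00000620965 made up 36.4%, 36.0% and 42.6% in the controls and 21.9%, 11.4% and 29.0% in the D391N libraries, with no overlap. In NDUFC1 ENST00000394225 made up 34.6%, 38.8% and 24.4% in the controls and 23.3%, 21.0% and 33.6% in the D391N libraries, so that the conditions overlapped.

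By annotated class, the 91 tested protein-coding transcripts of the members had a median of -0.45, against -0.10 for all protein-coding transcripts, and 69 of them were below 0. The 25 without a defined coding sequence had a median of -0.43, against 0.02 for all of that class. The 16 NMD transcripts were at 0.20, against 0.01, with 10 above 0, and the 36 retained introns were at 0.02, against 0.00. Without D391N replicate 2 the medians of the members were -0.21 for protein-coding transcripts, -0.06 for those without a defined coding sequence, 0.09 for NMD and -0.01 for retained introns, against -0.07, -0.03, -0.01 and -0.08 for all tested transcripts of these classes. Coding forms made up 76.2% ± 4.19 of the summed RPKM of the members in the D391N libraries and 78.5% ± 1.46 in the controls (SD, n = 3). In D391N replicate 2 this was 71.3%, the lowest value, and in the others it was between 77.4% and 80.2%. The sum over all members was 2257, 1694 and 2226 RPKM in the D391N libraries and 2712, 2702 and 2233 RPKM in the controls, so that control replicate 3 and D391N replicates 1 and 3 were close.

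**Figure D4:**
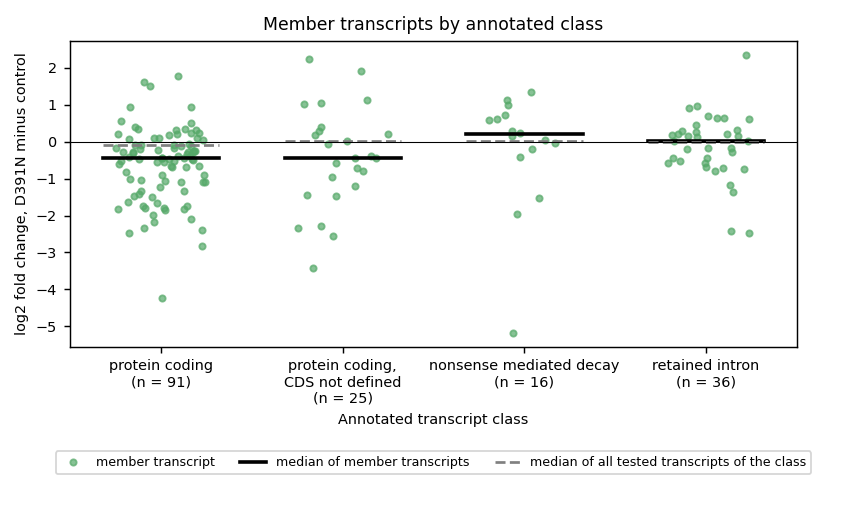
Log2 fold change of each tested member transcript (points) by annotated class, with the median of the members (solid line) and of all tested transcripts of the class (dashed line). Coding transcripts of the members have a median of -0.45 against -0.10, and retained introns lie around 0.

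Other genes of the respiratory chain were read as a comparison, with each list described by counts and median. None of the assembly factors, the mitochondrially encoded subunits or the nuclear subunits of complexes II to V passed the adjusted threshold (lowest adjusted p = 0.0898, COX7A2). The 16 assembly factors of complex I had a median of 0.02, with 7 below and 9 above 0. Without D391N replicate 2 the median was -0.03, with 9 below and 7 above 0, and the difference from the subunits was not tested. NDUFAF7, a methyltransferase, was the highest of them at 22.1, 24.4 and 17.7 RPKM against 15.4, 12.7 and 12.2 RPKM (0.67 ± 0.18, adjusted p = 0.12), and NDUFAF3 the lowest at -0.71. The 7 mitochondrially encoded subunits had a median of -0.30, from -1.38 for MT-ND3 to 0.56 for MT-ND4L, and their levels varied widely between replicates. The median was -0.07 without D391N replicate 2.

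The 9 nuclear subunits of complex III had a median of -0.48 and the 10 of complex IV one of -0.78. Every D391N library was below every control for 4 and 6 of these genes, and above every control for 0 and 1 (COX7C, 0.41). The 4 subunits of complex II were at -0.32 and the 15 of complex V, the ATP synthase, at -0.10. In complex II 1 gene was below and 0 above, and in complex V 2 were below and 2 above. Over all tested genes these shares were 20.7% below and 10.5% above. Without D391N replicate 2 the medians were -0.43 for complex III, -0.38 for complex IV, -0.12 for complex II and -0.03 for complex V, beside -0.19 for the nuclear complex I genes. The medians of complexes III and IV were thus below that of the nuclear complex I genes in both settings, although no difference between lists was tested.

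**Figure D5:**
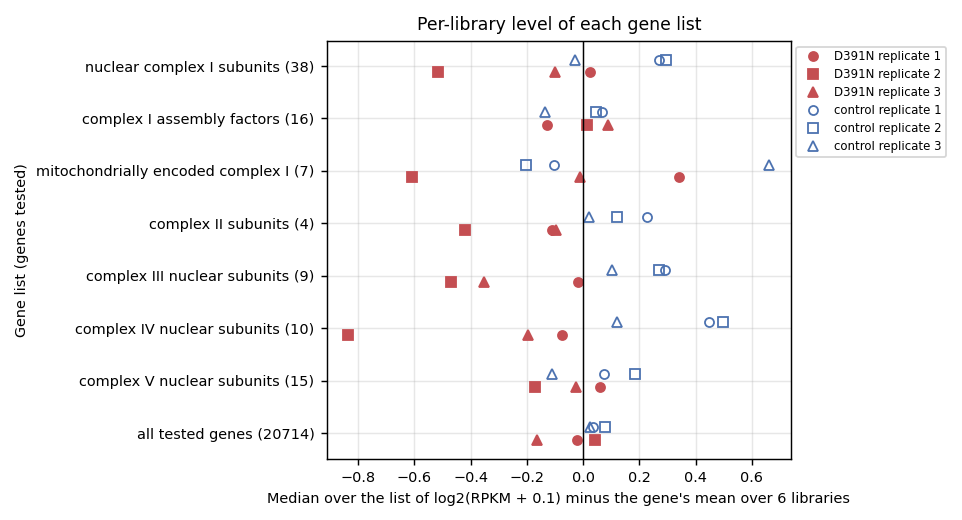
Median over each list of log2(RPKM + 0.1) relative to the mean of the gene over 6 libraries, with 1 point for each library (filled for D391N, open for control). D391N replicate 2 is the lowest for nuclear complex I genes, at -0.52, and for complexes II to V, but not for the assembly factors or for all genes.

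The members have short mRNAs. The top transcript was under 1000 nt in 33 of the 37 members with a known length, with a median of 627 nt, against 2250 nt for all tested genes whose top transcript is protein coding. The 2170 tested genes with a protein-coding top transcript under 1000 nt had a median fold change of -0.14, and the 6149 longer ones had -0.04. The 33 shorter members were at -0.36 and the 4 longer at -0.10. The part of transcript length in the lower values of the members was not tested.

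Some members share sequence with other loci. Exons of 16 members overlapped, on GRCh37, those of another gene whose mean was 1 RPKM or more, and a statement of whether counting used the strand is not given in the sources used here. NDUFA13 shares exons with YJEFN3, which was at 5.12, 9.18 and 5.27 RPKM against 5.33, 5.80 and 4.73 RPKM, with overlap of the conditions. NDUFS3 shares exons with PTPMT1, at 12.8, 8.29 and 16.1 RPKM against 20.9, 23.2 and 21.0 RPKM, and NDUFA7 lies across RPS28, at 20.8, 21.6 and 22.0 RPKM against 46.5, 37.6 and 37.3 RPKM. NDUFA2 lies across IK, and NDUFC1 across NAA15, on the opposite strand, with means of 105 and 88.4 RPKM for these neighbours. On the same strand, ENSG00000272921 overlaps NDUFA9 with a mean of 25.6 RPKM, beside 28.6 RPKM for NDUFA9 itself. ENSG00000265257 overlaps NDUFV2 and ENSG00000167774 overlaps NDUFA7 on the same strand, with means of 18 and 5.35 RPKM. The values of all 16 members, NDUFA13 included, are uncertain to this extent. Only 6 of the 57 pseudogenes reached a mean of 1 RPKM, and the highest, NDUFA9P1, had 2.65 RPKM, so that little of the signal was listed there.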

How the data were processed

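Total RNA of 3 D391N and 3 control libraries was sequenced. Per the study's methods, rRNA was depleted, adapters were removed with cutadapt, and Segemehl aligned the reads to the Ensembl transcriptome, protein-coding and non-coding merged (hg38 in the submitters' processing notes). The authors estimated levels with BitSeq. Versions are not given in the sources used here. What they deposited is the posterior mean of the natural log RPKM for each transcript and library, beside a column of its variance. Their BitSeq differential analysis was not rerun. The values of 1 member gene are not reported here, although it counts in the totals.

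Values were exponentiated and summed per gene. Genes, or transcripts, averaging 1 RPKM or more were fitted on log2(RPKM + 0.1) by limma 3.58.1 (empirical Bayes with trend, R 4.3.3), and an adjusted p (Benjamini-Hochberg) under 0.05 was a call. Isoform usage was the log2 ratio of a transcript to the rest of its gene, fitted without trend. Fits were tested on simulated data. Relative depth and the reads behind a value come from the posterior variance and the level of transcripts without reads, and cover counting and assignment error only. A symbol matched 88.2% of gene identifiers, and a GENCODE (GRCh37) biotype and length 90.2% of transcripts. Other software was Python 3.11.15 with scipy 1.17.1, numpy 2.4.6, pandas 2.3.3 and matplotlib 3.10.9.

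The members, gene lists and tests were chosen with earlier results of these data known. The rule for naming genes with values took those past the threshold, the 5 highest and lowest in level, the 5 largest rises and falls, members whose top transcript differed and the core subunits, and transcripts likewise. Any name outside it was picked with the values in view.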

Additional observations from a re-analysis of the deposited data

How the results depend on the processing

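The number of member genes called, 1, was also 1 with a pseudocount of 1 or 0.01, with a minimum mean of 5 RPKM and with quantile normalization. It was 0 with a minimum mean of 0.1 RPKM, without a filter, with median centring and without trend, and 4 with protein-coding transcripts only. It was 1 with gene sums in RPM, an alternative chosen after seeing the data. Leaving out 1 library gave 0 to 3 member genes, 0 to 23 member transcripts and 0 to 22 in isoform usage, the highest always without D391N replicate 1. The count of member transcripts, 1, was 0 with a minimum mean of 5 RPKM or of 10 reads. The median over the members was -0.47 to -0.19 with 1 library left out, and DIS3L2 4.98 to 5.22 on the log2 scale.

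With the replicate number as a block, 0 member genes, 0 member transcripts and 0 in usage were called, and DIS3L2 was again at 5.08. The libraries numbered 1, 2 and 3 correlated across conditions at 0.070, 0.221 and -0.111 in their deviations. Not every library correlated best with its own number. Pairing by number was thus not apparent, but correlations this weak from 3 libraries in each condition cannot exclude it.

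Over all genes, the 29 calls became 16 and 61 with a pseudocount of 0.01 and 1, 18 without a filter, 6 with a minimum mean of 5 RPKM, 14 with median centring, 17 with quantile normalization, 2 with the block, 593 with protein-coding transcripts, 537 in RPM and 2 to 2261 with 1 library left out. Over all transcripts, the 33 calls were 7 with the block, 142 with a pseudocount of 1 and 2 to 4961 with 1 library left out.

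Signs reversed for genes near 0. NDUFA3 was between -0.11 and 0.33 with 1 library left out and at -0.14 with protein-coding transcripts. NDUFS1 was between -0.018 and 0.25, and at -0.0075 with protein-coding transcripts. NDUFV3 was between -0.040 and 0.28, at -0.24 with protein-coding transcripts and at -0.15 in RPM. NDUFS8 was between -0.36 and 0.085, and at 0.068 with median centring. NDUFB1 was between -0.050 and 0.36. The cause was not tested. Of the 169 tested member transcripts, 51 had under 10 reads on average.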
